A study of Arabidopsis thaliana with 9 samples.

Results

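In seedlings of Arabidopsis thaliana, 134 nuclear genes were higher in both long noncoding RNA lines than in WT. They were chosen by their levels in these same libraries: every library of both lines lay above the highest WT library, and the mean of each line was at least 1.5 times the WT mean. The level was the count in CPM, that is, scaled to the same total of counts on nuclear gene rows in every library, and only the 14706 of 37898 nuclear genes with a mean of at least 5 CPM over the 9 libraries could enter, of which the members are 0.911%. Separation from WT alone held for 1116 genes. The differences from WT are therefore given below as a description of what was selected, with no test. The difference between the lines was not a condition of the rule and was tested. For some genes it is still not independent of the selection. The mean of at least 5 CPM includes both lines, so that a gene low elsewhere could enter through a high level in a single line.

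The study asked whether sequence-unrelated lncRNAs leave a shared mark on the plant transcriptome. Whole seedlings, 4 days old and all of the Columbia-0 background, were raised in long days under fluorescent light, at 23 °C. There were 3 libraries in each of 3 groups. OE APOLO has the genotype 35S:APOLO, the Arabidopsis lncRNA APOLO driven by a constitutive viral promoter. OE UPAT has the genotype 35S:UPAT, a human lncRNA under the same promoter, and WT carries neither. Each overexpressor is 1 transgenic line, so that the effect of a transgene and of any other difference of that line cannot be told apart. RNA came from pools of whole seedlings, and a gene can be higher because more cells make it or because each cell makes more, which cannot be told apart either.

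Total counts were 11918225 to 14112670 in OE APOLO-labelled libraries, 7901946 to 9206471 in OE UPAT and 13023768 to 14084551 in WT. APOLO itself had 1, 3 and 3 counts in OE APOLO-labelled libraries, 1, 1 and 0.5 in OE UPAT, and 2, 2 and 2 in WT. Pooled, these are 7 counts in OE APOLO-labelled libraries and 6 in WT. No increase of APOLO was therefore seen, and counts this low could miss a small one. For that reason the line is called "OE APOLO-labelled" and its directions rest on the label alone. UPAT has no row in the Arabidopsis annotation and was not checked. Green tissue markers were abundant in all libraries, as whole seedlings should show, with summed levels of 45714 to 48673 CPM in OE APOLO-labelled libraries, 47375 to 51653 CPM in OE UPAT and 44390 to 51006 CPM in WT. Some libraries stood apart: the 9 seed storage and oil body genes summed to 36.9 CPM in OE APOLO-labelled library A, against 2.04 to 13.9 CPM in the other 8, and the 5 root hair genes to 73.8 CPM in OE APOLO-labelled library C, against 29.97 to 48.7 CPM in the others.

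Of the 134 members, 14 were placed in a surface lipid group, 10 among GDSL lipases and 24 in a wall group, by products read after the selection. As background, the epidermis covers itself with a cuticle, a polyester of hydroxylated fatty acids called cutin that is embedded in and overlaid by waxes. Fatty acids are activated by acyl-CoA synthetases, hydroxylated by cytochromes P450 of the CYP86 family, joined to glycerol by acyltransferases of the GPAT family, carried outwards by transporters and lipid transfer proteins, and assembled outside the cell by enzymes that include lipases of the GDSL class. Beneath the cuticle lies the wall, a network of cellulose, xyloglucan and pectin that expansins and xyloglucan endotransglucosylases loosen during growth.

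**Figure D1:**
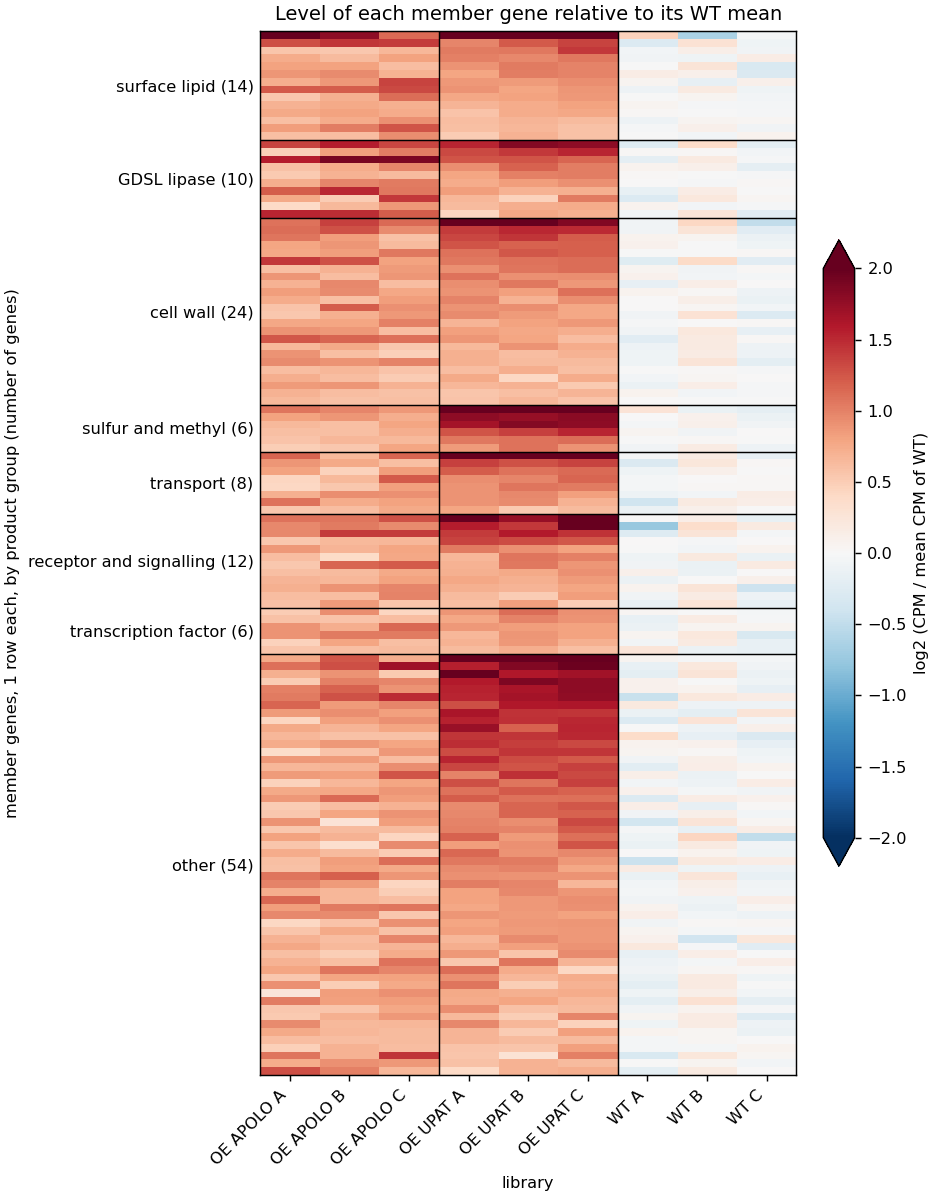
Level of the 134 members (rows, grouped by gene product, with the largest OE UPAT ratio of each group at its top) in the 9 libraries (columns). Colour gives log2 of the CPM over the WT mean, with values beyond 2 shown at the end of the scale; the lines are red throughout because the genes were selected for it, while the deepest red, in OE UPAT, sits in the sulfur group, among transport genes and at the top of the other groups.

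Against WT, the median ratio of the members was 1.71 in OE APOLO-labelled libraries and 1.87 in OE UPAT, where all genes at that level had medians of 0.976 and 0.977. Ratios reached 4.55 in OE APOLO-labelled libraries and 30.3 in OE UPAT, both for EARLI1, but only 13 of the 134 genes were at least 2 times higher in both lines. Summed over all members, the level was 10852, 11497 and 11805 CPM in OE APOLO-labelled libraries, 12907, 13341 and 13926 CPM in OE UPAT, and 6718, 6738 and 6882 CPM in WT. The plot of levels by library shows that most members shared a modest shift and a few a large one. At the limit of the rule, the 3 members with the smallest accepted ratios were AT5G16350 (1.501), AT1G75710 (1.505) and DOF1 (1.509), and the 3 genes just outside it were AT4G25780 (1.499), AT3G61820 (1.499) and OMT1 (1.498).

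In edgeR's quasi-likelihood test over 20021 genes, at a false discovery rate (FDR) under 0.01, 131 of the 134 members were called higher in OE APOLO-labelled libraries than in WT, where the background is 4.27% of genes higher and 2.27% lower. In OE UPAT 132 were called higher than in WT, where the background is 10.1% higher and 9.72% lower. These counts follow from the selection. The members not called in OE APOLO-labelled libraries were AT1G55200, MCM3 and AT1G69900, and those not called in OE UPAT were AT1G74460 and AT5G44550.

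The surface lipid group held genes of cutin and wax along with the acyltransferase GPAT3 and with PDF1 and EARLI1, proline-rich proteins described below. Of its 14 members, 2 were called higher, 2 lower and 10 neither in OE UPAT against OE APOLO-labelled libraries, where the background over all genes tested is 8.49% higher and 9.36% lower. LACS2, which activates fatty acids for cutin, had 33.6, 37.6 and 49.95 CPM in OE APOLO-labelled libraries, 39.4, 40.2 and 41.8 CPM in OE UPAT, and 23.0, 23.97 and 22.1 CPM in WT. CYP86A2, a fatty acid omega-hydroxylase, had 182, 208 and 244 CPM in OE APOLO-labelled libraries, 155, 163 and 153 CPM in OE UPAT, and 100.1, 109 and 96.7 CPM in WT. The lines did not overlap for CYP86A2, as held for 22.2% of genes at the level with OE UPAT higher and 21.6% with OE UPAT lower. It was lower in OE UPAT than in OE APOLO-labelled libraries by a log2 difference of -0.46 ± 0.10 (SE, edgeR FDR = 0.00253). That call was lost without OE APOLO-labelled library C, the highest of the 9 for this gene (log2 fold change -0.34, FDR = 0.0110). It was also lost without OE UPAT A (-0.41, FDR = 0.0144) and without OE UPAT C (-0.46, FDR = 0.0114). For LACS2 the lines overlapped, and the direct difference was -0.02 ± 0.12 (SE, FDR = 0.913).

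Acyltransferases took the next step. GPAT8, which puts fatty acids on glycerol for cutin, had 75.3, 76.3 and 94.1 CPM in OE APOLO-labelled libraries, 70.6, 80.2 and 74.3 CPM in OE UPAT, and 49.1, 47.7 and 52.0 CPM in WT. Its relative GPAT3 had 19.7, 19.7 and 21.2 CPM in OE APOLO-labelled libraries, 15.8, 14.7 and 15.7 CPM in OE UPAT, and 7.93, 9.57 and 7.95 CPM in WT, and was lower in OE UPAT than in the other line by a log2 difference of -0.42 ± 0.10 (SE, edgeR FDR = 0.00510). DCF, which attaches ferulate to cutin, stood at 2.01 times WT in OE APOLO-labelled libraries and 1.84 times in OE UPAT. HTH (HOTHEAD), an oxidoreductase whose loss fuses organs, had ratios of 1.68 in OE APOLO-labelled libraries and 1.97 in OE UPAT.

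BDG1 (BODYGUARD), an extracellular hydrolase needed for an intact cuticle, ranked among the 12 members with the largest smaller ratio, at 2.59 times WT in OE APOLO-labelled libraries and 2.28 times in OE UPAT. It had 17.8, 19.6 and 19.1 CPM in OE APOLO-labelled libraries, 14.3, 16.9 and 18.5 CPM in OE UPAT, and 5.999, 8.92 and 6.87 CPM in WT. All 6 libraries of the lines were above all 3 of WT, and the lines overlapped each other (log2 difference -0.21 ± 0.13, SE, edgeR FDR = 0.251). The gene overlaps its neighbour MGL, on the other strand, by 38 bases.

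The wax side held fewer genes. KCS20, a ketoacyl-CoA synthase that elongates fatty acids for wax and suberin, had 165, 182 and 206 CPM in OE APOLO-labelled libraries, 167, 176 and 169 CPM in OE UPAT, and 102, 113 and 112 CPM in WT. AT4G13840 (CER26), an acyltransferase-like protein of wax synthesis, had ratios of 1.65 in OE APOLO-labelled libraries and 2.01 in OE UPAT. AT5G16350, a WSD1-like acyltransferase and the member nearest the limit, was higher in OE UPAT than in OE APOLO-labelled libraries (log2 difference 0.57 ± 0.14, SE, edgeR FDR = 0.00566).

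Lipid transfer proteins gave the most variable member of the group. LTPG1, a membrane-anchored protein that exports wax, had 150.1, 156 and 152 CPM in OE APOLO-labelled libraries, 148, 155 and 162 CPM in OE UPAT, and 96.7, 90.8 and 90.6 CPM in WT, so that the lines differed by only -0.01 ± 0.08 (SE, log2, FDR = 0.955). EARLI1, a proline-rich protein with a lipid transfer domain that responds to cold, had 9.49, 4.13 and 2.61 CPM in OE APOLO-labelled libraries, 26.6, 36.0 and 45.5 CPM in OE UPAT, and 1.64, 0.767 and 1.16 CPM in WT. It varied widely within OE APOLO-labelled libraries, with a coefficient of variation of 66.8%, the highest of any member there. Even so, the lines did not overlap, and EARLI1 was higher in OE UPAT by a log2 difference of 2.71 ± 0.30 (SE, edgeR FDR = 1.26e-05), the widest direct difference of any member. EARLI1 reached the entry mean of 5 CPM only through OE UPAT, so that this difference is not independent of its selection.

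Epidermal markers were read from a list of 4 genes of the outer cell layer, of which 1, PDF1, is a member. The calls of PDF1 against WT, and its part in the sum, follow from the selection. With PDF1 counted, 3 of the 4 were called higher in OE APOLO-labelled libraries than in WT, beside 4.27% of all genes tested. In OE UPAT 4 were called higher than in WT, beside 10.1%. The summed level of the 4 was 558 to 675 CPM in OE APOLO-labelled libraries, 568 to 621 CPM in OE UPAT and 406 to 415 CPM in WT. None of the 4 was at 0 in any library. PDF1, a proline-rich protein of that layer and itself a member, had 92.2, 96.1 and 81.1 CPM in OE APOLO-labelled libraries, 86.9, 102 and 99.2 CPM in OE UPAT, and 55.3, 54.0 and 41.0 CPM in WT. ATML1, the transcription factor that gives the layer its identity and no member, was called higher in OE UPAT than in WT (log2 difference 0.39 ± 0.09, SE, edgeR FDR = 0.00472) and had a log2 difference of 0.35 ± 0.09 (SE, FDR = 0.0197) in OE APOLO-labelled libraries. The 5 guard cell markers had median log2 fold changes against WT of 0.02 in OE APOLO-labelled libraries and -0.18 in OE UPAT. The part of epidermal markers in the levels of the surface genes was not tested.

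**Figure D2:**
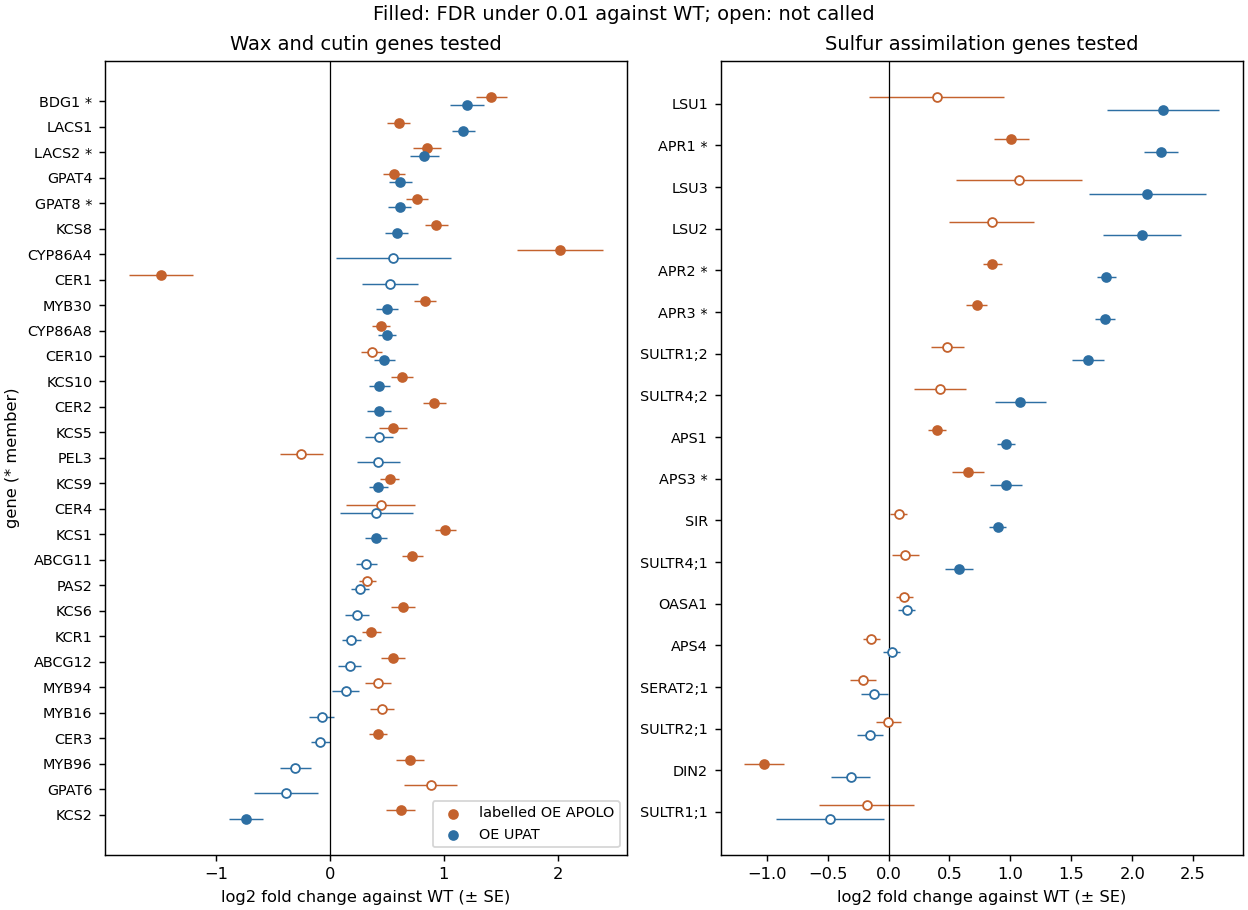
Log2 fold change against WT (± SE) of the genes tested in lists of wax and cutin synthesis (left) and sulfur assimilation (right), for OE APOLO-labelled libraries (orange) and for OE UPAT (blue); filled points are called at an FDR under 0.01 and an asterisk marks a member. On the left most orange points lie to the right of the blue ones, and on the right the blue points lead by a wide margin for APR1, APR2, APR3 and SULTR1;2.

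The wax and cutin pathway was also read from a list of named enzymes, transporters and regulators. Of 29 genes tested, 3 are members, whose differences from WT follow from the selection. In OE APOLO-labelled libraries 21 of the 29 were called higher than in WT and 1 lower, beside 4.27% and 2.27% of all genes tested. In OE UPAT 13 were called higher than in WT and 1 lower, beside 10.1% and 9.72%. The median log2 fold change against WT was 0.60 in OE APOLO-labelled libraries and 0.42 in OE UPAT. In the direct comparison 2 were higher in OE UPAT and 9 lower, beside 8.49% and 9.36%. KCS1, which elongates fatty acids for wax, had 49.1, 50.9 and 60.1 CPM in OE APOLO-labelled libraries, 34.5, 37.7 and 34.5 CPM in OE UPAT, and 27.4, 27.1 and 27.1 CPM in WT. At 1.96 times WT in OE APOLO-labelled libraries and 1.31 times in OE UPAT, it missed the fold limit in OE UPAT. CER1, the enzyme of alkane synthesis, ran the other way, with 3.90, 1.71 and 3.03 CPM in OE APOLO-labelled libraries, 14.1, 11.0 and 10.2 CPM in OE UPAT, and 11.8, 6.14 and 6.64 CPM in WT. Suberin is the related polymer of roots and seed coats. Of its 13 genes, 8 were called higher and 1 lower in OE APOLO-labelled libraries than in WT. In OE UPAT 2 were called higher than in WT and none lower, with the same shares of all genes tested beside these counts. The only member among the 13 was KCS20, whose differences from WT follow from the selection.

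Enzymes of the GDSL lipase class gave more members than any other product family examined. Of 31 genes with that annotation at the required level, 9 (29.0%) were members, beside 0.911% of all genes at that level. LTL1, named for lithium tolerance, is a further lipase of this class without the annotation. Over the 31, the median ratio was 1.22 in OE APOLO-labelled libraries and 1.31 in OE UPAT. With the members counted, 12 were called higher and 3 lower than in WT in OE APOLO-labelled libraries, beside 4.27% and 2.27% of all genes tested. In OE UPAT 15 were called higher and none lower, beside 10.1% and 9.72%. Among the 3 lower was CDEF1, no member, with log2 fold changes against WT of -2.44 in OE APOLO-labelled libraries and 1.95 in OE UPAT. LTL1 had 38.3, 44.2 and 37.6 CPM in OE APOLO-labelled libraries, 43.1, 53.6 and 51.4 CPM in OE UPAT, and 12.5, 19.2 and 13.05 CPM in WT. The most abundant, AT3G16370, had 461, 544 and 570 CPM in OE APOLO-labelled libraries, 464, 496 and 522 CPM in OE UPAT, and 277, 274 and 281 CPM in WT.

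Of the 10 lipases, 3 were called lower, 1 higher and 6 neither in OE UPAT against OE APOLO-labelled libraries, beside 9.36% of all genes lower and 8.49% higher. AT5G45670 had 23.9, 23.1 and 19.4 CPM in OE APOLO-labelled libraries, 11.3, 14.3 and 13.6 CPM in OE UPAT, and 8.07, 9.87 and 7.10 CPM in WT, and was lower in OE UPAT than in the other line by a log2 difference of -0.79 ± 0.13 (SE, edgeR FDR = 3.68e-04). AT4G18970 had 56.2, 69.3 and 50.6 CPM in OE APOLO-labelled libraries, 43.4, 39.6 and 39.8 CPM in OE UPAT, and 21.997, 27.0 and 24.2 CPM in WT, a direct difference of -0.55 ± 0.11 (SE, log2, edgeR FDR = 0.00134) whose call was lost without OE UPAT B (-0.52, FDR = 0.0104). In the opposite direction, AT1G54010 had 114, 145 and 167 CPM in OE APOLO-labelled libraries, 205, 219 and 236 CPM in OE UPAT, and 83.2, 83.2 and 79.1 CPM in WT (log2 difference 0.60 ± 0.12, SE, edgeR FDR = 0.00156). Part of the reads of AT1G54010 were divided with other features in 5 libraries.

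A pair of these lipases are neighbours. AT1G29660 (chromosome 1, 10371675 to 10374005, plus strand, TAIR10.1) ends 1593 bases before AT1G29670 (10375599 to 10377871, plus strand). AT1G29660 had 49.2, 61.9 and 60.9 CPM in OE APOLO-labelled libraries, 39.9, 39.5 and 37.0 CPM in OE UPAT, and 14.7, 18.7 and 16.4 CPM in WT, and was lower in OE UPAT than in OE APOLO-labelled libraries (log2 difference -0.59 ± 0.10, SE, edgeR FDR = 5.28e-04). AT1G29670 had 163, 195 and 226 CPM in OE APOLO-labelled libraries, 191, 205 and 207 CPM in OE UPAT, and 130, 120 and 122 CPM in WT, with no call between the lines (0.02 ± 0.11, SE, log2, FDR = 0.921). Reads of both were shared with other features in 1 or 2 libraries. The members hold 1 other pair of neighbours, RALFL24 and SAHH2 on chromosome 3, which are 350 bases apart and have unrelated products.

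**Figure D3:**
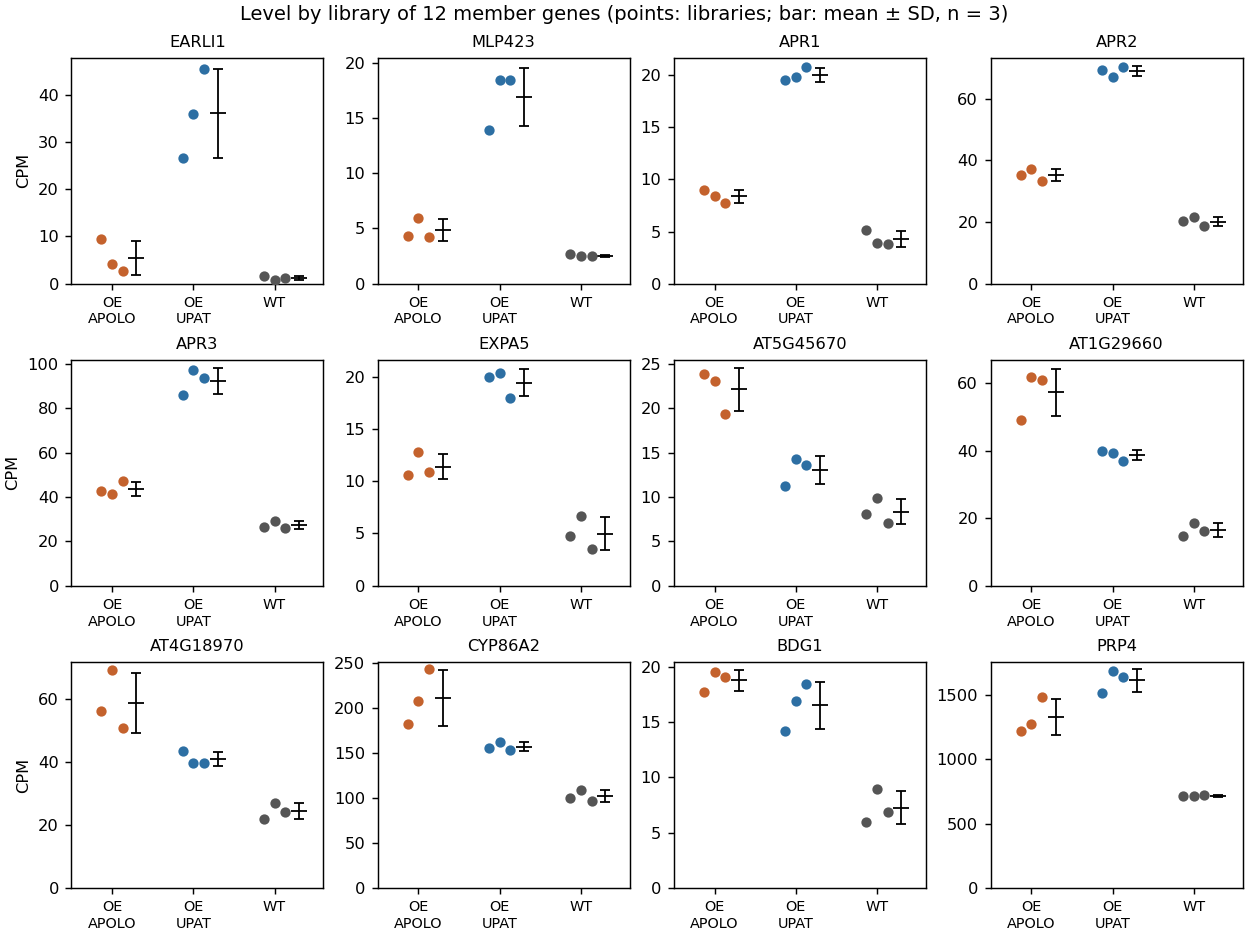
CPM in each library (points) with the group mean ± SD (bar, n = 3) for 12 members, OE APOLO-labelled libraries on the left, OE UPAT in the middle and WT on the right, each on its own linear axis from 0. EARLI1, MLP423, APR1, APR2, APR3 and EXPA5 are highest in OE UPAT, AT5G45670, AT1G29660, AT4G18970 and CYP86A2 in OE APOLO-labelled libraries, and no WT point reaches a point of either line.

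Wall genes were the largest group with a named role, with 24 members. Among wall-loosening proteins were 4 xyloglucan endotransglucosylases, XTH4, XTH8, XTH9 and XTH16, and 2 expansins, EXPA5 and EXPA6. XTH4, the most abundant of them per kilobase of exon at 449 CPM per kb over all libraries, had 817, 836 and 783 CPM in OE APOLO-labelled libraries, 811, 879 and 808 CPM in OE UPAT, and 529, 540 and 521 CPM in WT. EXPA5 had 10.6, 12.8 and 10.9 CPM in OE APOLO-labelled libraries, 19.95, 20.4 and 18.0 CPM in OE UPAT, and 4.71, 6.65 and 3.55 CPM in WT. The lines overlapped for XTH4 (0.01 ± 0.07, SE, log2, FDR = 0.935) and not for EXPA5, which was higher in OE UPAT by a log2 difference of 0.74 ± 0.15 (SE, edgeR FDR = 0.00183).

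These members do not stand for their families. Over the 21 xyloglucan endotransglucosylases at the required level, the median ratio was 1.31 in OE APOLO-labelled libraries but 0.853 in OE UPAT. In the direct comparison 1 was called higher and 9 lower in OE UPAT, beside 8.49% and 9.36% of all genes tested. Over the 13 alpha-expansins the median was 1.12 in OE APOLO-labelled libraries and 0.874 in OE UPAT. XTH9, with 86.5, 92.6 and 77.8 CPM in OE APOLO-labelled libraries, 120.4, 114 and 115 CPM in OE UPAT, and 53.2, 49.8 and 47.3 CPM in WT, was the member called higher in OE UPAT (log2 difference 0.42 ± 0.08, SE, edgeR FDR = 0.00115).

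Polysaccharide synthesis gave CESA5, a cellulose synthase subunit, with ratios of 1.66 in OE APOLO-labelled libraries and 1.84 in OE UPAT, GALS1, a galactan synthase, with 1.70 and 1.93 in the same order, and ATCSLA09, which makes glucomannan. ATCSLA09 had 30.4, 28.7 and 27.4 CPM in OE APOLO-labelled libraries, 23.599, 22.1 and 19.8 CPM in OE UPAT, and 11.0, 14.5 and 12.97 CPM in WT. It was lower in OE UPAT than in the other line by a log2 difference of -0.43 ± 0.09 (SE, edgeR FDR = 0.00272), a call lost without OE UPAT B (-0.43, FDR = 0.0122) and without OE UPAT C (-0.38, FDR = 0.0178). GH9C2, an endoglucanase, had 29.5, 26.8 and 19.5 CPM in OE APOLO-labelled libraries, 23.1, 23.7 and 24.2 CPM in OE UPAT, and 9.43, 14.5 and 9.50 CPM in WT.

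Arabinogalactan proteins, heavily glycosylated proteins of the cell surface, and their fasciclin-like relatives gave 6 members of 34 genes at the level. AGP18 had 29.8, 33.4 and 26.5 CPM in OE APOLO-labelled libraries, 36.1, 39.2 and 38.7 CPM in OE UPAT, and 13.1, 16.4 and 11.7 CPM in WT, and the direct difference of the lines missed the threshold (0.32 ± 0.11, SE, log2, FDR = 0.0368). FLA1 was called higher in OE UPAT than in OE APOLO-labelled libraries (log2 difference 0.46 ± 0.11, SE, edgeR FDR = 0.00510). PRP4, a structural proline-rich wall protein, was the most abundant wall gene per kilobase, at 631 CPM per kb. It had 1223, 1278 and 1485 CPM in OE APOLO-labelled libraries, 1514, 1689 and 1645 CPM in OE UPAT, and 712, 712 and 726 CPM in WT, so that a tight WT group lay far below both lines while the lines themselves were not called different (FDR = 0.0535). PRP4 covers 513 bases of the gene AT4G38775 on the opposite strand, which averaged 1.98 CPM.

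Pectin enzymes among the wall members were PME44, a pectin methylesterase, the pectate lyase-like AT1G04680, the invertase and pectin methylesterase inhibitor-like AT2G26440 and PG2, a polygalacturonase. Their ratios ran from 1.54 to 1.93 in OE APOLO-labelled libraries and from 1.57 to 1.72 in OE UPAT, and their direct differences missed the threshold (lowest FDR = 0.012). Of the 24 wall members, 3 were higher, 1 was lower and 20 were not called in OE UPAT against OE APOLO-labelled libraries, counts near the background of 8.49% higher and 9.36% lower.

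Of the 6 members of sulfur and methyl metabolism, 5 were higher in OE UPAT than in OE APOLO-labelled libraries, beside 8.49% of all genes tested. Plants activate sulfate with ATP sulfurylase, reduce the product with APS reductase, the step that controls the flux, and pass the sulfur on to cysteine and methionine, from which S-adenosylmethionine is made as the methyl donor of the cell. APR1, one of the APS reductases, had 8.96, 8.39 and 7.75 CPM in OE APOLO-labelled libraries, 19.5, 19.9 and 20.8 CPM in OE UPAT, and 5.14, 3.87 and 3.78 CPM in WT. APR2 had 35.3, 37.1 and 33.4 CPM in OE APOLO-labelled libraries, 69.3, 67.1 and 70.4 CPM in OE UPAT, and 20.4, 21.5 and 18.6 CPM in WT. APR3 had 42.5, 41.4 and 47.1 CPM in OE APOLO-labelled libraries, 85.8, 97.2 and 93.8 CPM in OE UPAT, and 26.6, 29.2 and 25.9 CPM in WT. WT was lowest by the selection, and all OE UPAT libraries lay above all those labelled OE APOLO for these 3 reductases, as for 22.2% of genes at the level.

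The step between the lines was tested. In edgeR, APR1 was higher in OE UPAT than in OE APOLO-labelled libraries by a log2 difference of 1.23 ± 0.13 (SE, FDR = 7.49e-06), APR2 by 0.94 ± 0.07 (SE, FDR = 6.01e-07) and APR3 by 1.06 ± 0.08 (SE, FDR = 4.14e-07), and each was called in all 16 alternative fits. APR1 and APR3 overlap genes on the opposite strand by 21 and 27 bases. APS3, an ATP sulfurylase, had 10.3, 10.7 and 12.7 CPM in OE APOLO-labelled libraries, 13.3, 15.6 and 13.8 CPM in OE UPAT, and 6.999, 8.26 and 6.87 CPM in WT, and was not called between the lines (0.31 ± 0.13, SE, log2, FDR = 0.0749).

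Beyond reduction, MTO3, an S-adenosylmethionine synthetase, had 365, 389 and 387 CPM in OE APOLO-labelled libraries, 512, 522 and 536 CPM in OE UPAT, and 245, 249 and 243 CPM in WT. SAHH2, which hydrolyses the spent methyl donor, had 43.6, 43.3 and 47.4 CPM in OE APOLO-labelled libraries, 68.5, 73.5 and 82.1 CPM in OE UPAT, and 29.7, 27.3 and 28.9 CPM in WT. Both were higher in OE UPAT than in OE APOLO-labelled libraries, MTO3 by a log2 difference of 0.43 ± 0.07 (SE, edgeR FDR = 4.81e-04) and SAHH2 by 0.71 ± 0.09 (SE, edgeR FDR = 4.73e-05). Over the 6 members of this group the median ratio to WT was 1.58 in OE APOLO-labelled libraries and 2.999 in OE UPAT.

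A wider sulfur list had 18 genes tested, of which 4 are members, whose differences from WT follow from the selection. In OE APOLO-labelled libraries 5 of the 18 were called higher than in WT and 1 lower, beside 4.27% and 2.27% of all genes tested. In OE UPAT 12 were called higher than in WT and none lower, beside 10.1% and 9.72%. In the direct comparison 10 were higher in OE UPAT and none lower, beside 8.49% and 9.36%. SULTR1;2, the main sulfate uptake transporter of the root and no member, had 32.1, 22.6 and 35.4 CPM in OE APOLO-labelled libraries, 75.01, 62.2 and 66.1 CPM in OE UPAT, and 20.1, 26.6 and 19.4 CPM in WT. SULTR1;2 failed the rule on separation, with OE APOLO-labelled library B below WT B, and also the fold limit, at 1.36 times WT in OE APOLO-labelled libraries. SIR, the sulfite reductase, had 105, 108 and 100.4 CPM in OE APOLO-labelled libraries, 192, 175 and 192 CPM in OE UPAT, and 101, 99.5 and 103 CPM in WT (log2 fold change of OE UPAT against OE APOLO-labelled libraries 0.81 ± 0.07, SE, edgeR FDR = 1.42e-06).

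Transport gave 8 members, 3 of them higher in OE UPAT than in OE APOLO-labelled libraries and none lower, beside 8.49% of all genes higher and 9.36% lower. NRT1.1, the nitrate transporter and sensor, had 130, 102 and 133 CPM in OE APOLO-labelled libraries, 173, 158 and 164 CPM in OE UPAT, and 70.2, 79.6 and 73.8 CPM in WT (direct log2 difference 0.42 ± 0.08, SE, edgeR FDR = 0.00139). SUC1, a sucrose-proton symporter, was higher by 0.55 ± 0.10 (SE, log2, edgeR FDR = 6.26e-04). CHX16, a cation/proton exchanger, had 5.97, 4.20 and 5.98 CPM in OE APOLO-labelled libraries, 11.1, 13.2 and 15.2 CPM in OE UPAT, and 2.64, 2.996 and 2.39 CPM in WT, a direct log2 difference of 1.27 ± 0.17 (SE, edgeR FDR = 6.47e-05). CHX16 reached the entry mean of 5 CPM only through OE UPAT, so that its direct difference is not independent of the selection. NAXT1, a nitrate exporter, shared reads with other features in 7 libraries, and its ratios of 1.85 in OE APOLO-labelled libraries and 1.80 in OE UPAT are uncertain.

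Receptors and signalling proteins numbered 12. PERK15, a receptor kinase with a proline-rich outer domain, had 8.50, 11.5 and 11.5 CPM in OE APOLO-labelled libraries, 11.5, 13.1 and 11.9 CPM in OE UPAT, and 3.64, 5.19 and 4.25 CPM in WT. WAK2, a kinase that binds pectin in the wall, had 4.34, 4.27 and 4.92 CPM in OE APOLO-labelled libraries, 11.8, 6.79 and 10.8 CPM in OE UPAT, and 2.04, 2.23 and 1.83 CPM in WT, and was called higher in OE UPAT than in the other line (1.09 ± 0.19, SE, log2, edgeR FDR = 5.93e-04). Reads of WAK2 were divided with other features in all 9 libraries and the gene overlaps another on the opposite strand by 994 bases, so that its level is uncertain. WAK2 also reached the entry mean of 5 CPM only through OE UPAT, so that its direct difference is not independent of the selection. Secreted signals were RALFL24, a growth-inhibiting peptide of the RALF family, with ratios of 1.59 in OE APOLO-labelled libraries and 1.73 in OE UPAT, and STOMAGEN, which promotes stomata and is made in the inner leaf tissue, with 1.59 in OE APOLO-labelled libraries and 1.56 in OE UPAT.

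The 6 transcription factors were MYB4, a repressor of phenylpropanoid genes, BZIP34, bHLH071, AT2G31730 of the bHLH class, the zinc finger gene AT1G75710 and DOF1. Their ratios ran from 1.505 to 1.996 in OE APOLO-labelled libraries and from 1.57 to 1.97 in OE UPAT. Their direct differences all missed the threshold (lowest FDR = 0.0471). MYB4, for one, had 16.4, 14.6 and 19.5 CPM in OE APOLO-labelled libraries, 16.0, 15.6 and 15.3 CPM in OE UPAT, and 8.07, 9.14 and 9.11 CPM in WT.

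Among the other 54 members were abundant genes of the chloroplast. CA1, a carbonic anhydrase of photosynthetic cells and at 729 CPM per kb the most abundant member, had 2246, 2382 and 2393 CPM in OE APOLO-labelled libraries, 3094, 3057 and 3620 CPM in OE UPAT, and 1521, 1390 and 1712 CPM in WT. It was higher in OE UPAT than in the other line (log2 difference 0.45 ± 0.11, SE, edgeR FDR = 0.00628), with reads shared in 8 libraries and an overlap of 343 bases with LSF1 on the same strand. PORB, a light-dependent enzyme of chlorophyll synthesis, had 500.1, 574 and 511 CPM in OE APOLO-labelled libraries, 604, 611 and 618 CPM in OE UPAT, and 355, 332 and 334 CPM in WT, and the lines were not called different (FDR = 0.121). The 6 green tissue markers, none of them a member, had median log2 fold changes against WT of 0.12 in OE APOLO-labelled libraries and 0.13 in OE UPAT. In OE UPAT 3 of the 6 were called higher than in WT, beside 10.1% of all genes tested.

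Several members belong to other pathways. AOS, which commits fatty acids to jasmonate, had 26.2, 30.2 and 33.0 CPM in OE APOLO-labelled libraries, 46.5, 40.1 and 49.2 CPM in OE UPAT, and 18.3, 17.8 and 21.2 CPM in WT (direct log2 difference 0.57 ± 0.11, SE, edgeR FDR = 0.00157). Of the 13 genes tested for jasmonate synthesis, AOS included, 3 were called higher and none lower in OE APOLO-labelled libraries than in WT. In OE UPAT 5 were called higher than in WT and 1 lower. The shares of all genes tested are 4.27% higher and 2.27% lower in OE APOLO-labelled libraries, and 10.1% and 9.72% in OE UPAT. FAH1, the ferulate hydroxylase that leads to sinapate esters and syringyl lignin, had 43.4, 44.0 and 52.2 CPM in OE APOLO-labelled libraries, 69.1, 65.3 and 70.2 CPM in OE UPAT, and 23.57, 29.9 and 28.6 CPM in WT (0.53 ± 0.09, SE, log2, edgeR FDR = 6.71e-04). Among 14 phenylpropanoid genes tested FAH1 was the only member, and its differences from WT follow from the selection, as do those of AOS. Of the 14, 4 were called higher than in WT in OE APOLO-labelled libraries, and 6 higher and 1 lower in OE UPAT, beside the same shares.

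MCM3, a subunit of the replicative helicase, had 7.81, 7.40 and 7.41 CPM in OE APOLO-labelled libraries, 13.2, 13.3 and 14.0 CPM in OE UPAT, and 6.36, 4.38 and 4.01 CPM in WT, with a direct log2 difference of 0.81 ± 0.15 (SE, edgeR FDR = 0.00113). It was the only member among 19 cell cycle genes tested. Their median log2 fold change against WT was -0.01 in OE APOLO-labelled libraries and 0.52 in OE UPAT. Of the 19, 8 were called higher in OE UPAT than in WT, beside 10.1% of all genes tested. In the direct comparison 8 were higher in OE UPAT, beside 8.49%. MLP423, a protein of the Bet v 1 fold, had 4.29, 5.98 and 4.21 CPM in OE APOLO-labelled libraries, 13.9, 18.4 and 18.5 CPM in OE UPAT, and 2.64, 2.48 and 2.47 CPM in WT. Its direct log2 difference of 1.77 ± 0.18 (SE, edgeR FDR = 4.12e-06) was the largest after that of EARLI1. Like EARLI1, MLP423 reached the entry mean of 5 CPM only through OE UPAT, so that this difference is not independent of its selection.

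Some of the largest shared ratios belong to genes of no assigned function. AT5G26270 had 21.1, 23.8 and 31.5 CPM in OE APOLO-labelled libraries, 28.6, 35.2 and 37.98 CPM in OE UPAT, and 8.78, 11.3 and 9.26 CPM in WT. AT4G15620, a membrane protein of the UPF0497 family, had 7.195, 8.47 and 9.77 CPM in OE APOLO-labelled libraries, 10.03, 11.0 and 11.9 CPM in OE UPAT, and 2.57, 4.02 and 3.86 CPM in WT. AT5G64850, annotated with a sorbin and SH3 domain, had 14.5, 16.2 and 13.5 CPM in OE APOLO-labelled libraries, 21.0, 22.2 and 24.7 CPM in OE UPAT, and 7.64, 7.53 and 6.41 CPM in WT. Of these 3 only AT5G64850 was called between the lines (0.59 ± 0.12, SE, log2, edgeR FDR = 0.00148).

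**Figure D4:**
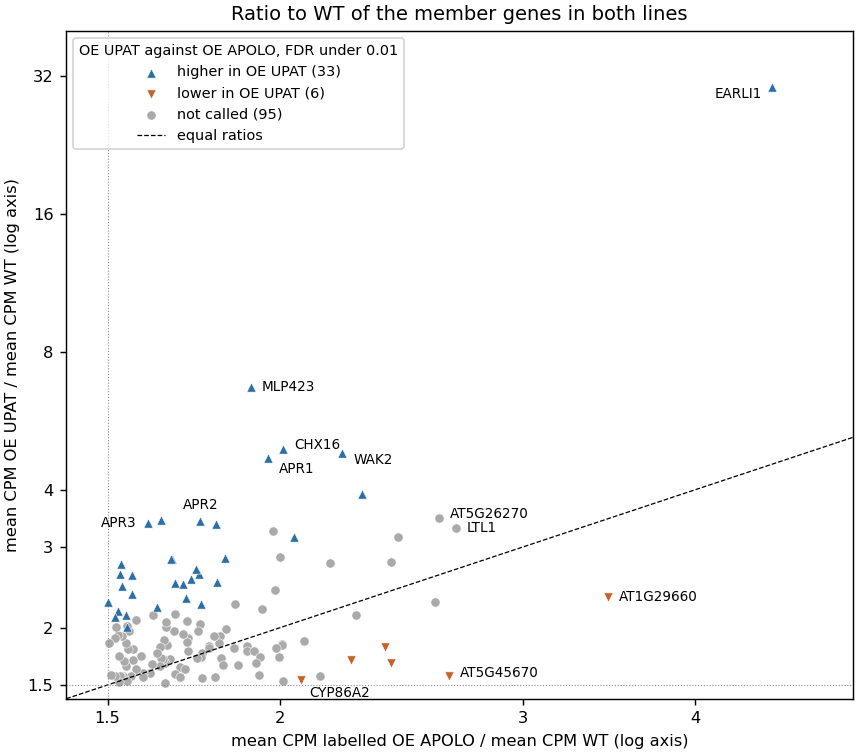
Ratio of the mean CPM to that of WT for each of the 134 members, in OE APOLO-labelled libraries (horizontal, log axis) and in OE UPAT (vertical, log axis). Triangles are the 33 members called higher in OE UPAT and the 6 called lower, the dashed line marks equal ratios, and the dotted lines mark the limit of 1.5 used for selection; EARLI1 and MLP423 stand far above the dashed line and AT1G29660 and AT5G45670 below it.

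Over all members, OE UPAT exceeded OE APOLO-labelled libraries more often than the reverse. The ratio to WT was larger in OE UPAT for 96 of 134 genes (71.6%), where it was larger for 49.1% of all genes at that level. In the direct comparison 33 members (24.6%) were higher in OE UPAT, where the background is 8.49% of the genes tested, and 6 (4.48%) were lower, where it is 9.36%. The median direct log2 fold change was 0.12 for members and -0.01 for all genes tested. The rule set the same floor under both ratios and did not set which line was higher, but genes that pass a floor in both lines need not resemble other genes in the difference between them. The entry mean of 5 CPM also includes OE UPAT, and EARLI1, MLP423, CHX16 and WAK2, all called higher there, reached it only through that line. The shares are therefore given side by side and were not tested against each other. Without overlap, OE UPAT was higher for 51 members (38.1%, beside 22.2% of genes at the level) and lower for 11 (8.21%, beside 21.6%). The 95 members other than the 39 called missed the threshold, which does not show that the lines had equal levels.

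By kind of gene, all 6 members lower in OE UPAT were lipases (AT5G45670, AT1G29660 and AT4G18970), enzymes of the surface lipid group (CYP86A2 and GPAT3) or a wall polysaccharide synthase (ATCSLA09). GPAT8, the GPAT member described above for cutin, was not called between the lines (log2 difference -0.15, edgeR FDR = 0.269). The 33 that were higher comprised 5 of 6 sulfur and methyl genes, 3 of 8 transport genes, 2 of 12 receptor and signalling genes, 3 of 24 wall genes, 2 of 14 surface lipid genes, 1 of 10 lipases, none of 6 transcription factors and 17 of 54 other genes. Among these 17 were CAD9 and AT1G15125, a methyltransferase-like gene with 15.2, 21.4 and 21.1 CPM in OE APOLO-labelled libraries, 31.9, 38.9 and 37.1 CPM in OE UPAT, and 11.4, 10.6 and 10.1 CPM in WT. AT1G15125 overlaps AT1G15120 on the same strand by 183 bases.

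Within OE APOLO-labelled libraries the members were not evenly spread. Library C of that line was the highest of its 3 for 64 members (47.8%), against 28.5% of all genes at the level, and library A for 32 (23.9%), against 46.4%. Library C led for 8 of 14 surface lipid genes and 9 of 12 receptor and signalling genes, but for only 6 of 24 wall genes. In OE UPAT library C was highest for 54 members (40.3%), against 22.6% of all genes, and in WT library B was highest for 78 (58.2%), against 58.7%. The median coefficient of variation of the members was 10.3% in OE APOLO-labelled libraries, 7.24% in OE UPAT and 9.48% in WT, where it was 7.81%, 7.97% and 6.82% over all genes at the level.

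WT B also set the border for many genes outside the selection. Without WT B, 188 genes met the rule, of which 129 are members, whereas leaving out any other library gave 127 to 155. Without OE APOLO-labelled library C, 117 of the 134 remained among 127 genes.

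**Figure D5:**
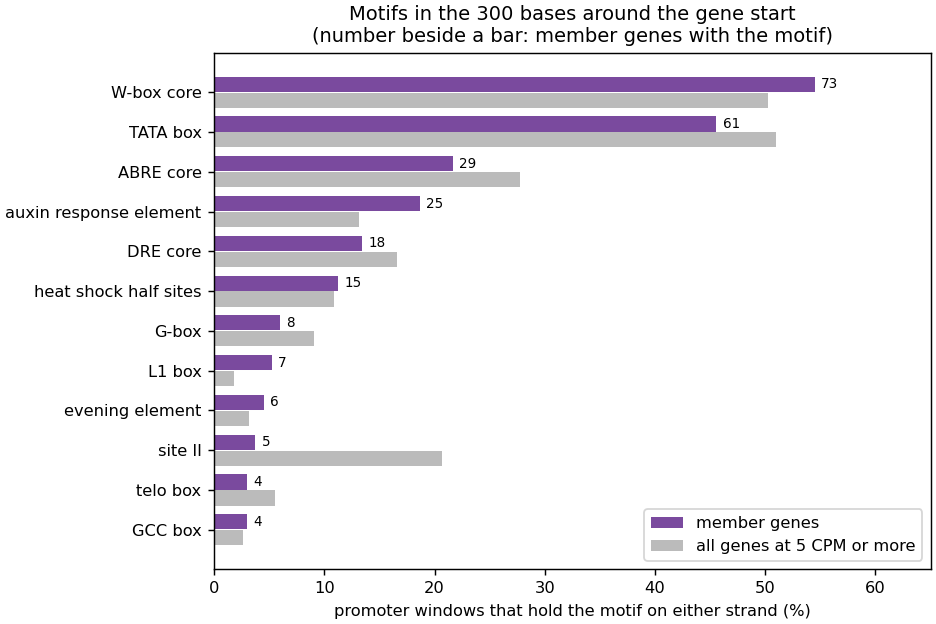
Share of promoter windows (250 bases before to 50 after the gene start) that hold each of 12 short motifs on either strand, for members (purple) and for all genes at a mean of 5 CPM or more (grey), with the number of members beside each bar. The grey bar is far the longer for site II. The purple bar is the longer for the L1 box (5.22% against 1.76%), and by more points for the auxin response element (18.7% against 13.2%) and the W-box core (54.5% against 50.3%).

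The sequence before the gene start was compared with that of other genes, as a description. Windows were cut from the RefSeq genome (TAIR10.1), from 250 bases before to 50 after the annotated start, for all 134 members and 14705 of the genes at the level. Of 12 motifs searched on both strands, site II (TGGGCC), common before genes of growth and ribosome production, was in 5 member windows (3.73%) and in 20.6% of all windows. The L1 box (TAAATGCA), bound by homeodomain factors of the epidermis such as ATML1, was in 7 (5.22%) and in 1.76% of all. The auxin response element (TGTCTC) was in 25 (18.7%) and 13.2%, and the G-box (CACGTG) in 8 (5.97%) and 9.09%. A match says only that these letters are there, and a window without one says nothing of the factor.

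The 7 genes with an L1 box were PDF1, GPAT8 and AT4G13840 of the surface lipid group, EXPA5 and GALS1 of the wall group, the transporter gene AT5G13400 and AT1G06360, annotated as a fatty acid desaturase. In PDF1, GPAT8 and AT5G13400 the match lay after the start, at positions 31, 27 and 23. The stretches around the other 4 matches, all before the start, are shown because they are the sequence that these members of different function have in common, with the box in capitals, reading TAAATGCA or its reverse complement TGCATTTA.
EXPA5 (chr3:11013622-11013689, minus strand, match at -208): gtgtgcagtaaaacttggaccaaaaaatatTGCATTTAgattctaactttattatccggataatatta
GALS1 (chr2:14216691-14216758, plus strand, match at -50): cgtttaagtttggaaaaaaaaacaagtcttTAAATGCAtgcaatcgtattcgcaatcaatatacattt
AT4G13840 (chr4:8016648-8016715, minus strand, match at -103): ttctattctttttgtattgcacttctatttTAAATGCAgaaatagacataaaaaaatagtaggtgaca
AT1G06360 (chr1:1940509-1940576, minus strand, match at -50): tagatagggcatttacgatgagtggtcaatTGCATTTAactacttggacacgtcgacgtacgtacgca
Of the 7 genes, EXPA5 and AT1G06360 were called higher in OE UPAT than in OE APOLO-labelled libraries, AT1G06360 by a log2 difference of 0.56 ± 0.10 (SE, edgeR FDR = 5.07e-04).

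The members had a median of 3 exon blocks, against 5 for all genes at the level, a median exonic length of 1741 bases against 1867, and a GC content of 41.4% against 41.3%. By chromosome, 42, 17, 17, 31 and 27 lay on chromosomes 1 to 5, which is 31.3%, 12.7%, 12.7%, 23.1% and 20.1%, where all genes at the level have 26.2%, 15.3%, 19.7%, 15.5% and 23.3%. All but AT1G05135, a pseudogene, code for protein. Reads shared with other features, visible as fractional counts, occurred in at least 1 library for 29 members and in 5 or more for 12, and 21 members overlap a gene that averaged at least 1 CPM, mostly on the opposite strand. The use of strand in counting is not stated, so that a part of such reads may belong to the partner.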

How the data were processed

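Polyadenylated RNA of whole seedlings was sequenced as stranded single-end libraries in 9 samples, 3 for each of OE APOLO, OE UPAT and WT, grouped by the genotype in the labels. The authors trimmed reads with Trimmomatic 0.36, removed ribosomal reads with SortMeRNA, aligned to TAIR10 with STAR 2.5.2b and counted with featureCounts of Subread 1.6.5 on Araport11. The deposited values are estimated counts per gene, some of them fractional where reads were shared between features, and were rounded to whole numbers before testing. The setting for strand and for shared reads is not given in the sources used here. The study's methods state independent biological replicates per genotype in the sentence on a related seedling experiment and do not repeat it for these libraries, and p-values measure the spread between these samples.

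CPM was the count over the summed nuclear gene rows, leaving out 296 organelle genes and the 31189 transposon rows (0.233 to 0.272% of counts). The tests also left out the transposon rows but kept the organelle genes, both among the genes tested and in the library sizes. edgeR 4.0.16 in R 4.3.3 (TMM factors, quasi-likelihood F-test, low counts filtered, Benjamini-Hochberg over 20021 genes, all 9 libraries in 1 fit without a block) was tested on simulated data first. Alternatives were DESeq2 1.42.0, other scalings, filters and thresholds, a replicate block and leaving out each library. All 37898 nuclear genes were matched to RefSeq TAIR10.1, the source of names, positions and promoter windows.

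The members and the gene lists were chosen with earlier results of these data known. The role groups and product families were written after the members were seen, and 14 list symbols that stand for more than 1 gene were corrected after the files were read. Named by rule were the 12 members with the largest smaller ratio to WT, the 6 with the highest mean CPM, members in a list, the 5 smallest p-values in each direction between the lines, neighbouring members of 1 family, and the 3 genes on each side of the fold limit. Other genes named were chosen after their values were seen.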

Additional observations from a re-analysis of the deposited data

Results flagged for a closer look

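The ratio to WT differed between the lines, by the direct test of OE UPAT against the libraries labelled OE APOLO (edgeR, FDR under 0.01 over all genes), for 10 members named in the text. Higher in OE UPAT were EARLI1 by a log2 fold change of 2.71, MLP423 by 1.77, APR1 by 1.23, APR3 by 1.06 and APR2 by 0.94. Lower in OE UPAT were AT5G45670 with a log2 fold change of -0.79, AT1G29660 with -0.59, AT4G18970 with -0.55, CYP86A2 with -0.46 and ATCSLA09 with -0.43. They were chosen as the 5 smallest p-values in each direction. EARLI1 and MLP423 reached the entry mean of 5 CPM only through OE UPAT, so that their direct differences are not independent of the selection.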

How the results depend on the processing

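The 134 members became 216 with a mean of at least 1 CPM, 376 at 1.3 times WT and 13 at 2 times WT, and 127 to 188 when 1 library was left out, 188 without WT B. TMM-scaled CPM gave 167, and all gene rows in the library size, tried after seeing the data, gave 136. Of the members, 39 were called between the lines, 27 to 40 with 1 library left out (27 without OE UPAT C, all of them among the 39), 40 in DESeq2 and 7 where a log2 difference of 1 or more was also required. Over all genes, 3573 were called between the lines, 5922 at an FDR under 0.05, 752 with that fold limit and 2209 to 3521 without 1 library (2209 without OE UPAT C). Upper-quartile scaling turned the split from 1699 higher and 1874 lower into 2051 higher and 1510 lower in OE UPAT. Against WT, the libraries labelled OE APOLO gave 1309 calls, 2658 at an FDR under 0.05, 252 with the fold limit and 639 to 1706 without 1 library (639 without WT A, 731 without WT C, 865 without OE APOLO B), and OE UPAT gave 3971, 6306, 729 and 2766 to 4479 on the same settings. Over all pairs of groups, correlations of deviations were -0.306 to 0.239 between same letters and -0.284 to 0.375 between other letters. Between the lines alone, same letters gave 0.239, 0.198 and 0.077, and other letters -0.284 to 0.112. A pairing of libraries by letter was not tested further. With a replicate block 41 members were called between the lines, the 39 included. For the 10 members named for their direct difference, 154 of 160 alternative fits kept the call, 6 lost it and none reversed. The cause of these shifts was not tested. For CPM the organelle genes were left out of the library size, because the rule takes nuclear genes. The tests kept them in, and a fit without them was not run. Depth was lowest in OE UPAT, which limits its low genes most.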
